A study of Mus musculus with 8 samples.

Results

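The genes described here are those whose response to loss of Derlin-1 and to loss of Derlin-2 could be set against each other in the dentate gyrus with a signal above the noise floor. A probe was taken when its spot was well above background, as flagged by the scanner software, on all 8 arrays. This held for 35438 of 56605 probes (62.6%), which carry 18265 of the 26866 gene symbols on the array, and 35266 of these probes, for 18188 genes, had a value in every group and were tested. For each probe the quantity is the Derlin-1 effect minus the Derlin-2 effect, that is, the change of log2 signal from control to KO in the Derlin-1 line less the same change in the Derlin-2 line. A value of 1 is a 2-fold difference between the responses. The choice uses brightness alone and no difference between groups. The 1113 probes that just missed it, well above background on 7 of 8 arrays, had a median log2 signal of 4.79, against 8.69 for the probes taken.

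All mice were C57BL/6 males aged 8 to 9 weeks, and the tissue was dentate gyrus. Derlin-1 controls were homozygous for a floxed Derl1 gene and Derlin-2 controls for a floxed Derl2 gene, both without Cre. The KO mice of each line carried the same floxed alleles together with Cre recombinase under the nestin promoter, so that every KO animal had Cre and no control did. Each of the 4 groups had 2 arrays, each hybridised with Cy3-labelled cRNA of a single sample. The sources do not say whether the 2 arrays of a group stand for separate animals, so p-values measure only the spread between these arrays, which may be technical. Nestin is made by neural precursors, so the deletion reaches neurons and astroglia of the central nervous system, whereas microglia, endothelium and blood keep the gene.

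Derlins sit in the membrane of the endoplasmic reticulum (ER) and help to move misfolded proteins out of the ER for degradation by the proteasome, a route called ER-associated degradation. When misfolded proteins build up, the sensors IRE1, ATF6 and PERK switch on the unfolded protein response, which raises chaperones, degradation factors and stress genes. The dentate gyrus holds neural stem cells that divide in the adult, intermediate progenitors, newborn neurons, granule neurons, and the peptide-releasing interneurons of the hilus. A gene that responds alike to loss of either derlin has a difference near 0 here, however large its response.

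The arrays of each line shared a scan time that the other line did not have, so scan and line cannot be told apart, but every KO effect was taken within a scan time. The slide of each array was not read here. Pearson's r over the bright probes was 0.9896 to 0.9965 between arrays of a group and 0.9715 to 0.989 between lines. Between KO and control arrays of a line it was 0.9919 to 0.9949, inside the range within groups. The median gap between the 2 arrays of a group was 0.182 and 0.212 on the log2 scale in Derlin-1 and Derlin-2 controls, and 0.11 and 0.119 in Derlin-1 and Derlin-2 KO. Prox1, the defining transcription factor of granule neurons, lay between 11.97 and 12.61 on all arrays. Markers of the neighbouring CA pyramidal field were lower in the Derlin-1 line, where the median deviation over 15 markers ran from -0.48 to -0.01 on the 4 arrays, than in the Derlin-2 line, where it ran from 0.18 to 0.37. The granule markers went the opposite way, with 0.07 to 0.46 and -0.28 to -0.19. The part of these marker levels in the results was not tested.

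No probe passed the threshold for the difference. The count at an adjusted p under 0.05 was 0 of 35266 in limma (0.0%), and the smallest adjusted p was 0.185. At an unadjusted p under 0.05 there were 2048 probes (5.81%), 1179 (3.34%) with the Derlin-1 effect above the Derlin-2 effect and 869 (2.46%) with it below. With the brightest bright probe taken for each gene, 808 of 18188 genes (4.44%) were under that p, 431 (2.37%) with the higher Derlin-1 effect and 377 (2.07%) with the lower. The balance of directions depended on the scaling: over probes, 57.6% of those at p under 0.05 had the higher Derlin-1 effect after quantile normalization, 81.5% after scaling to the 75th percentile and 79.5% in the deposited log2 values. The median difference over all genes was -0.031, so that a gene or list at 0 was not below the typical gene.

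Most genes at p under 0.05 had KO and control arrays that separated in opposite directions in the lines, or in the Derlin-1 line alone. Choosing genes by the p of the difference between the effects itself favours such patterns. Of the 431 with a higher Derlin-1 effect, both KO arrays lay above both controls in the Derlin-1 line and below both in the Derlin-2 line for 211, the arrays separated in the Derlin-1 line only for 144, and in the Derlin-2 line only for 55. Of the 377 with a lower Derlin-1 effect, 204 separated in opposite directions, 77 in the Derlin-1 line only and 89 in the Derlin-2 line only. Opposite separation of the arrays was seen in 1018 of all 18188 genes (5.6%), with KO higher in the Derlin-1 line and lower in the other for 418 (2.3%) and the reverse for 600 (3.3%), and separation in the same direction in 1020 (5.61%). Over probes, 2143 (6.08%) separated in opposite directions. For 281 of the 808 genes (34.8%) the control means of the lines lay farther apart than the KO means, which was so for 48.0% of all genes. The share at p under 0.05 was 8.86% of the dimmest 4547 genes and 1.69% of the brightest 4547, and 131 of the 188 genes (1.03% of all) that differed at least 2-fold were among the dimmest 4547.

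**Figure D1:**
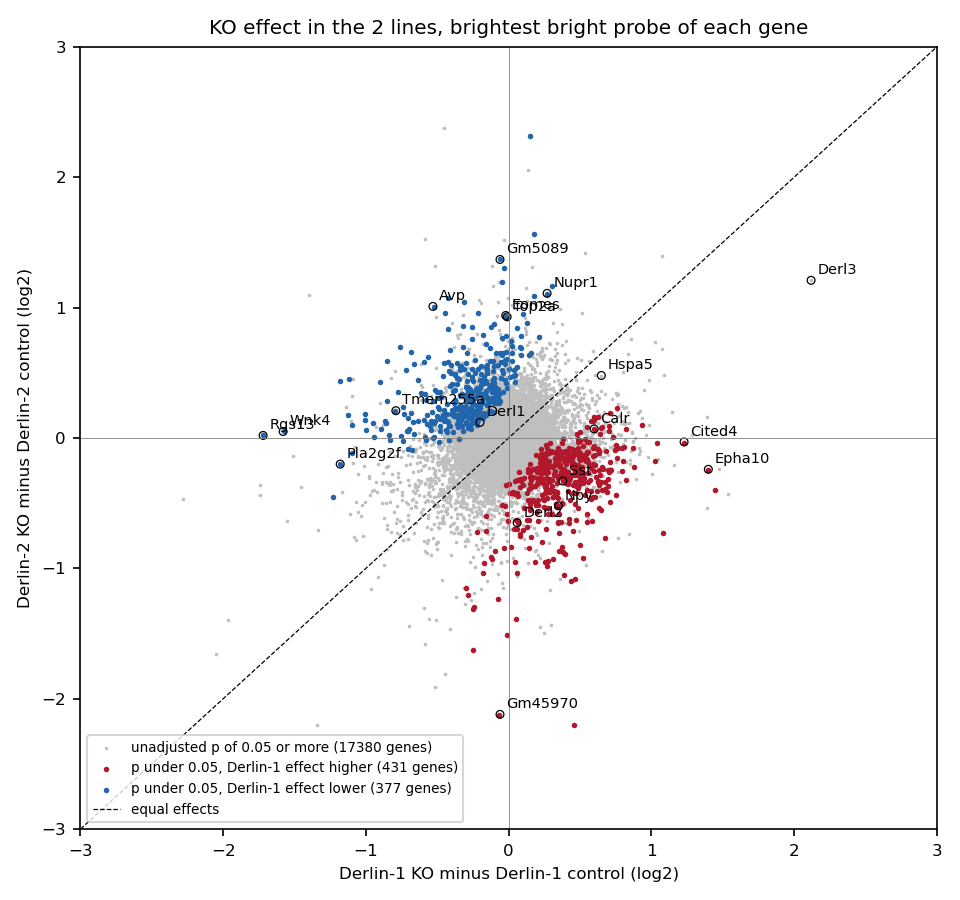
Change from control to KO in the Derlin-1 line (x axis, log2) against the change in the Derlin-2 line (y axis, log2) for 18188 genes, 1 point each; red and blue points have an unadjusted p under 0.05 for the difference with the Derlin-1 effect higher (431) or lower (377), and the dashed line marks equal effects. Derl3 and Hspa5 lie in the upper right quadrant below the dashed line, Derl2 lies at a Derlin-1 effect of 0.06 and a Derlin-2 effect of -0.65, and Gm45970 is the lowest circled gene.

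The targeted genes were examined first. Derl2 read 11.39 and 11.44 in Derlin-1 controls, 11.47 and 11.49 in Derlin-1 KO, 11.36 and 11.22 in Derlin-2 controls, and 10.63 and 10.65 in Derlin-2 KO. The Derlin-2 KO arrays were thus the lowest of the 8, with a difference between the lines of 0.71 (SE 0.14, 95% interval 0.39 to 1.04, adjusted p = 0.639 in limma). A second bright Derl2 probe gave 1.08 (SE 0.20). Derl1 read 10.86 and 10.76 in Derlin-1 controls, 10.56 and 10.65 in Derlin-1 KO, 10.49 and 10.59 in Derlin-2 controls, and 10.70 and 10.61 in Derlin-2 KO. The arrays separated in opposite directions, downwards in Derlin-1 KO, but the difference of -0.32 (SE 0.14) had an adjusted p of 0.864, and a dimmer Derl1 probe differed by 0.32 (SE 0.16) with the sign turned. The Derl1 signal therefore does not check the labels of the Derlin-1 line, and Derl2 goes with those of the Derlin-2 line. What part of either transcript each probe detects was not analysed here.

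Derl3, the family member that the unfolded protein response induces, was the member of the degradation list with the highest difference. It read 6.78 and 7.10 in Derlin-1 controls, 8.92 and 9.21 in Derlin-1 KO, 6.82 and 7.66 in Derlin-2 controls, and 8.47 and 8.41 in Derlin-2 KO. All KO arrays exceeded all controls, by 2.12 (SE 0.28) and 1.21 (SE 0.28). The effects differed by 0.91 (SE 0.39, 95% interval -0.02 to 1.85, adjusted p = 0.862), and leaving out Derlin-2 control replicate 2 gave 0.49, leaving out the other Derlin-2 control 1.33.

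Chaperones and folding enzymes of the ER, the targets of ATF6 and XBP1, had a median Derlin-1 effect of 0.21 and a median Derlin-2 effect of 0.04. The median deviation of the members was higher on KO than on control arrays in both lines. It was 0.04 and -0.05 in Derlin-1 controls and 0.17 and 0.18 in Derlin-1 KO. In Derlin-2 controls it was -0.13 and -0.08, and in Derlin-2 KO -0.03 and -0.05. The median difference over the 34 measured members was 0.14, beside -0.031 over all genes, and 27 of 34 members had a difference above 0, against 43.2% of all genes, and without Derlin-1 control replicate 2 the median was 0.08. Calr and Hsp90b1 reached an unadjusted p under 0.05 with the higher effect in the Derlin-1 line (2 of 34, against 2.37% of all genes), and no member did so in the other direction. Calr, the lectin chaperone calreticulin, read 12.96 and 13.17 in Derlin-1 controls, 13.59 and 13.74 in Derlin-1 KO, 12.97 and 13.17 in Derlin-2 controls, and 13.15 and 13.13 in Derlin-2 KO. Only the Derlin-1 KO arrays stood above the rest, and the effects of 0.60 and 0.07 differed by 0.53 (SE 0.18, 95% interval 0.11 to 0.96, adjusted p = 0.827). Hsp90b1, which encodes the ER chaperone Grp94, read 14.30 and 14.40 in Derlin-1 controls, 14.81 and 14.86 in Derlin-1 KO, 14.43 and 14.72 in Derlin-2 controls, and 14.67 and 14.54 in Derlin-2 KO. Its difference of 0.45 (SE 0.18, adjusted p = 0.859) lay between 0.30 and 0.59 when an array was left out. In the 8 fits without an array, p stayed under 0.05 in 3 for Calr and in 1 for Hsp90b1.

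For the master chaperone of the ER the difference was smaller in value. Hspa5, which encodes BiP, read 13.97 and 13.83 in Derlin-1 controls, 14.58 and 14.52 in Derlin-1 KO, 13.79 and 14.02 in Derlin-2 controls, and 14.36 and 14.41 in Derlin-2 KO. Both KO groups lay above their controls, by 0.65 and 0.48, and the difference of 0.17 had a 95% interval from -0.22 to 0.57, which holds both 0 and the difference of Calr. Its other 2 bright probes gave 0.11 and 0.13. Sdf2l1, a partner of BiP, differed by 0.50 (SE 0.21) with effects of 0.69 and 0.19. Pdia5, a disulfide isomerase and the member with the highest difference, differed by 0.68 (SE 0.31), which became 0.33 without Derlin-1 control replicate 1 and 1.03 without the other Derlin-1 control. Atf6 itself had the lowest difference of the list, -0.20.

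The promoters of these genes are printed because the ER stress response element, the sequence through which ATF6 acts, is spelled out in them. The element searched was CCAAT, then 9 bases of any kind, then CCACG, on both strands, in the 300 bases from 250 before to 50 after each RefSeq start site (build GRCm38.p6). It was present in 39 of 32851 promoters (0.119%), in 8 of the 29 chaperone genes that had a promoter entry (Calr, Canx, Creld2, Dnajc3, Ero1b, Hsp90b1, Hspa5 and Pdia6), and in Derl3 and Syvn1 among 28 genes of ER-associated degradation. The sequences run 5′ to 3′ on the strand of the gene up to the base before the start site, with the fixed bases of the element in capitals.

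Calr: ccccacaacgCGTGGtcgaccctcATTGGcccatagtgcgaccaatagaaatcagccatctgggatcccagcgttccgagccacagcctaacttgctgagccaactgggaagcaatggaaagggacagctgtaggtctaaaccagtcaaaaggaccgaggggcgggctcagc

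Hsp90b1: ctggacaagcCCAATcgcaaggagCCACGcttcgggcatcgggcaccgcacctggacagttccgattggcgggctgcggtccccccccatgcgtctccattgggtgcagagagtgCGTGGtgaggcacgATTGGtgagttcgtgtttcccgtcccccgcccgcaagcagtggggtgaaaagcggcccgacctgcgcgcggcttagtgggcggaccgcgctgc

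Hspa5: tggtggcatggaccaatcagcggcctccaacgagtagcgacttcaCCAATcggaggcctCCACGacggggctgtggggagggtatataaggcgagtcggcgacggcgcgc

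Derl3: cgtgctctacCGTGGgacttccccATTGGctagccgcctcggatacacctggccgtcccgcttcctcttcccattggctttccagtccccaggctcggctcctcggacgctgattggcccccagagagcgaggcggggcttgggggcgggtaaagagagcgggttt

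The Calr sequence is chr8:84846932-84847103 on the minus strand, and its element reads on the opposite strand, from 162 bases before the start. Hsp90b1 (chr10:86705445-86705666, minus strand) holds an element 212 bases before the start and another on the opposite strand closer to it. Hspa5 (chr2:34771980-34772089, plus strand) has its match 65 bases before the start, and Derl3 (chr10:75893232-75893397, plus strand) has one on the opposite strand 156 bases before it. Genes with the element thus include Calr and Hsp90b1, with differences of 0.53 and 0.45, and Hspa5, with a difference of 0.17. A match describes the letters of this window and says nothing about binding.

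The list of ER-associated degradation had differences near 0. Over 38 members the median difference was -0.03. At p under 0.05 there were 2 members above (Derl2 and Os9, against 2.37% of all genes in this direction) and 0 below. Of these, Derl2 is itself the gene deleted in the Derlin-2 line. Os9, the lectin that hands misfolded glycoproteins to the Hrd1 complex, read 13.45 and 13.42 in Derlin-1 controls, 13.46 and 13.50 in Derlin-1 KO, 13.53 and 13.52 in Derlin-2 controls, and 13.24 and 13.15 in Derlin-2 KO. The Derlin-2 KO arrays were the lowest, and the effects of 0.04 and -0.33 differed by 0.37 (SE 0.13, adjusted p = 0.845). The 35 proteasome subunits had a median of -0.06 and the 21 cytosolic heat shock chaperones of 0.00. At p under 0.05 there were 1 and 0 members, beside 4.44% of all genes in either direction. That 1 member was Psmb2, at 0.52 (SE 0.20), and its other bright probes gave -0.10 and 0.04.

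Targets of PERK and ATF4 had a median difference of 0.01 over 26 members, and Nupr1 alone reached p under 0.05 (1 of 26, against 2.07% of all genes in this direction). Nupr1, a small chromatin protein induced by stress, read 8.92 and 8.79 in Derlin-1 controls, 9.07 and 9.18 in Derlin-1 KO, 8.72 and 9.29 in Derlin-2 controls, and 10.26 and 9.96 in Derlin-2 KO. Its KO arrays lay above their controls in both lines, by 0.27 and by 1.11, a difference of -0.84 (SE 0.29, 95% interval -1.52 to -0.15, adjusted p = 0.836). A dimmer Nupr1 probe gave 0.41 (SE 0.22). Ddit4, a stress-induced inhibitor of mTOR signalling, differed by -0.41 (SE 0.19), and Trib3 had the highest difference of the list, 0.49 (SE 0.40).

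Sterol synthesis genes had median effects of 0.13 and 0.18 and a median difference of -0.03 over 23 members. Insig1, which retains the SREBP activator in the ER, read 7.50 and 7.42 in Derlin-1 controls, 7.32 and 7.39 in Derlin-1 KO, 7.09 and 7.36 in Derlin-2 controls, and 7.74 and 7.58 in Derlin-2 KO. It was lower in KO of the Derlin-1 line and higher in KO of the Derlin-2 line, with a difference of -0.54 (SE 0.18, adjusted p = 0.827).

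**Figure D2:**
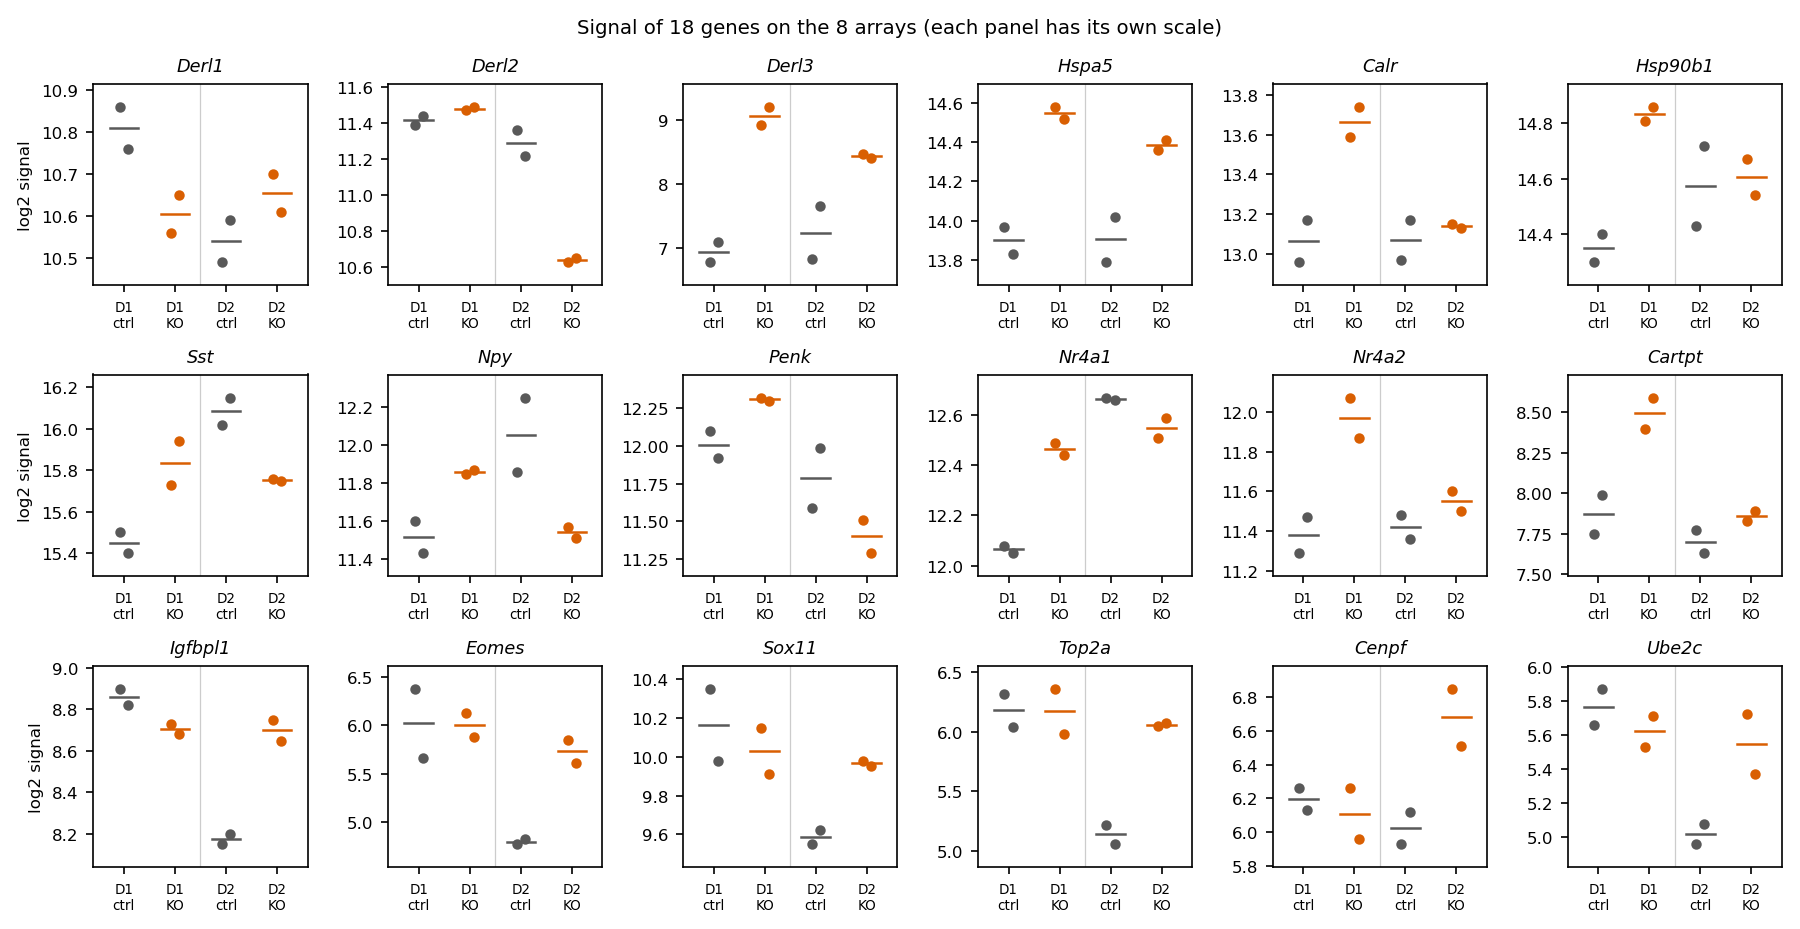
Log2 signal of 18 genes on each of the 8 arrays, by group (D1 and D2, Derlin-1 and Derlin-2 line; ctrl, control); points are arrays, bars are the means of 2 arrays, and each panel has its own vertical scale. In Sst and Npy the KO arrays lie above the controls in the Derlin-1 line and below them in the Derlin-2 line, whereas in Eomes, Top2a and Igfbpl1 the Derlin-2 control arrays are the lowest of the 8.

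Neuropeptide genes had the highest median difference of the 30 lists. The median Derlin-1 effect was 0.11 and the median Derlin-2 effect -0.23, with a median difference of 0.38 over 19 members. The difference was above 0 for 16 of 19, against 43.2% of all genes. Sst, Npy, Penk and Cartpt reached p under 0.05 (4 of 19, against 2.37% of all genes in this direction), with 0 in the other direction. That last count depends on which genes the list holds: Avp, the vasopressin precursor, is not in it and had a difference of -1.53 (SE 0.41), with the arrays separated in opposite directions. The median of the list was 0.27 to 0.42 when an array was left out and 0.36 after scaling to the 75th percentile. Sst, the somatostatin precursor of hilar interneurons, read 15.50 and 15.40 in Derlin-1 controls, 15.73 and 15.94 in Derlin-1 KO, 16.02 and 16.15 in Derlin-2 controls, and 15.76 and 15.75 in Derlin-2 KO. The groups did not overlap in either line and went in opposite directions, by 0.38 and -0.33, a difference of 0.71 (SE 0.16, 95% interval 0.33 to 1.10, adjusted p = 0.74). The control means of the lines lay farther apart (-0.64, Derlin-1 minus Derlin-2) than the KO means (0.08).

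Npy, the neuropeptide Y precursor, showed the same pattern. It read 11.60 and 11.43 in Derlin-1 controls, 11.85 and 11.87 in Derlin-1 KO, 11.86 and 12.25 in Derlin-2 controls, and 11.57 and 11.51 in Derlin-2 KO. The effects of 0.35 and -0.52 differed by 0.87 (SE 0.21, 95% interval 0.37 to 1.36, adjusted p = 0.748). For Sst and Npy, p stayed under 0.05 in all 8 fits without an array. Penk, the proenkephalin precursor, read 12.10 and 11.92 in Derlin-1 controls, 12.32 and 12.30 in Derlin-1 KO, 11.59 and 11.99 in Derlin-2 controls, and 11.51 and 11.29 in Derlin-2 KO. It too separated in opposite directions, with a difference of 0.69 (SE 0.23, adjusted p = 0.827), whereas a dimmer probe gave 0.28 (SE 0.39). Cartpt, which encodes the CART peptides, read 7.75 and 7.99 in Derlin-1 controls, 8.40 and 8.59 in Derlin-1 KO, 7.77 and 7.63 in Derlin-2 controls, and 7.83 and 7.89 in Derlin-2 KO. Its KO arrays lay above the controls in both lines, by 0.63 and 0.16, and the difference was 0.47 (SE 0.18, adjusted p = 0.859). For Penk and Cartpt, p stayed under 0.05 in 4 and 3 of the 8 fits without an array.

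Transmission of cAMP signals to the Sst gene through the cAMP response element is textbook biology, and the element, TGACGTCA, was searched on both strands in the same 300 bases. It was present in 588 of 32851 promoters (1.79%) and in 4 of the 14 neuropeptide genes with an entry, which were Cartpt, Chgb, Scg2 and Sst. Penk had no promoter entry and was not searched. The Sst stretch (chr16:23890845-23890954, minus strand) and the Cartpt stretch (chr13:99900684-99900805, minus strand) are printed since both genes are among the 4 at p under 0.05, with the element in capitals, 48 and 112 bases before the start.

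Sst: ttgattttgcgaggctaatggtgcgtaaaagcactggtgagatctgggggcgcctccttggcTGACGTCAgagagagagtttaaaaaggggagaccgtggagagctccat

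Cartpt: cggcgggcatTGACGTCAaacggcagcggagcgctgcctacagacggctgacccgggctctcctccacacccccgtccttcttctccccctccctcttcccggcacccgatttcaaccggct

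The carriers of the element did not share a value, since Chgb had a difference of -0.12 and Scg2 of 0.25.

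The enzyme and the transporter of GABA had intervals around 0. Over 19 interneuron markers the median difference was 0.10, and Sst and Npy were the 2 at p under 0.05, against 2.37% of all genes in this direction. Gad1, the GABA-synthesising enzyme, differed by 0.24 (95% interval -0.18 to 0.66) and Slc32a1, the vesicular GABA transporter, by 0.01 (95% interval -0.36 to 0.38). Pvalb, the marker of basket cells, differed by -0.01 (SE 0.32). Without Derlin-1 KO replicate 2 the median of the list was -0.02. In bulk tissue, fewer cells of a type and less RNA per cell cannot be told apart.

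In the lists of the neurogenic lineage the members at p under 0.05 all had the lower Derlin-1 effect, and they were few. Over 14 markers of newborn neurons the median effects were -0.07 and 0.14 and the median difference was -0.22, with Igfbpl1, Eomes and Sox11 at p under 0.05 (3 of 14, against 2.07% of all genes in this direction). Igfbpl1, a secreted protein of young neurons, read 8.90 and 8.82 in Derlin-1 controls, 8.73 and 8.68 in Derlin-1 KO, 8.15 and 8.20 in Derlin-2 controls, and 8.75 and 8.65 in Derlin-2 KO. The 2 Derlin-2 control arrays were the lowest, and the difference was -0.68 (SE 0.14, 95% interval -1.0 to -0.35, adjusted p = 0.639). A second probe gave -0.78 (SE 0.30), and p stayed under 0.05 in all 8 fits without an array. Eomes, the transcription factor Tbr2 of intermediate progenitors, read 6.38 and 5.66 in Derlin-1 controls, 6.13 and 5.88 in Derlin-1 KO, 4.77 and 4.82 in Derlin-2 controls, and 5.85 and 5.61 in Derlin-2 KO. The groups overlapped in the Derlin-1 line and did not in the Derlin-2 line, with a difference of -0.95 (SE 0.34, 95% interval -1.76 to -0.14, adjusted p = 0.851). It was -1.31 without Derlin-1 control replicate 2 and -0.59 without the other Derlin-1 control.

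The other members of the lineage had smaller values. Sox11, a transcription factor of immature neurons, differed by -0.52 (SE 0.21), and its other 2 bright probes gave -0.45 (SE 0.28) and -0.57 (SE 0.31). Without an array, p stayed under 0.05 in 4 of 8 fits for Eomes and in 2 of 8 for Sox11. Sox4, its close relative, differed by -0.37 (SE 0.17), Neurod1 by -0.43 (SE 0.26) and Dcx, the microtubule protein of migrating neurons, by -0.27 (SE 0.20), with 0.51 (SE 0.42) at a dimmer probe of Dcx. The difference was below 0 for 10 of 14 members, while 43.2% of all genes lay above 0, and the highest was Marcksl1 at 0.13. The list's median was -0.35 without Derlin-1 control replicate 2, -0.18 without the other Derlin-1 control, and -0.12 when each gene was given by the median of its bright probes.

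Cell cycle genes had a median Derlin-1 effect of -0.10 and a median Derlin-2 effect of 0.12. The median difference was -0.20 over 24 members, 20 of them below 0 and 4 above, while 43.2% of all genes lay above, and the median was -0.12 without Derlin-1 control replicate 1 and also -0.12 with normexp background correction. Top2a, Cenpf and Ube2c reached p under 0.05 (3 of 24, against 2.07% of all genes in this direction), and p stayed under it in 8, 5 and 5 of the 8 fits without an array. Top2a, the topoisomerase of dividing cells, read 6.32 and 6.04 in Derlin-1 controls, 6.36 and 5.98 in Derlin-1 KO, 5.22 and 5.06 in Derlin-2 controls, and 6.05 and 6.07 in Derlin-2 KO. As with Igfbpl1, the Derlin-2 controls were the lowest arrays, and the difference was -0.94 (SE 0.23, 95% interval -1.49 to -0.39, adjusted p = 0.748). Its control means were 1.05 apart (Derlin-1 minus Derlin-2) and its KO means 0.11. Cenpf, a kinetochore protein, read 6.26 and 6.13 in Derlin-1 controls, 6.26 and 5.96 in Derlin-1 KO, 5.93 and 6.12 in Derlin-2 controls, and 6.85 and 6.51 in Derlin-2 KO. There the Derlin-2 KO arrays were the highest, unlike in Top2a, and the difference was -0.74 (SE 0.23). Ube2c, an enzyme of the anaphase-promoting complex, differed by -0.68 (SE 0.22). Mki67, the Ki67 antigen, was not among them, with -0.21 (SE 0.33), 0.16 without Derlin-2 control replicate 2 and -0.59 without the other Derlin-2 control. Plk1 and Cdk1, both drivers of mitosis, had differences of 0.29 (SE 0.22) and 0.40 (SE 0.32), on the other side of 0.

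Neural stem cell markers had a median difference of -0.11 over 19 members, with Fabp7 alone at p under 0.05 (1 of 19, against 2.07% of all genes in this direction). The median ran from -0.23 without Derlin-1 control replicate 1 to -0.02 without Derlin-2 control replicate 1. Fabp7, the lipid-binding protein of radial glia-like stem cells and astrocytes, differed by -0.38 (SE 0.16) with effects of 0.04 and 0.43, and p stayed under 0.05 in 1 of the 8 fits without an array. Sox2 and Nes differed by -0.09 (SE 0.18) and -0.11 (SE 0.27). Cxcr4, the chemokine receptor of progenitors, differed by -0.46 (SE 0.37). Of the 19 members, 14 had a difference below 0 and 5 above. The highest was Notch1 at 0.60 and the lowest Lpar1 at -0.52. Stat5b, a signal transducer downstream of cytokine and growth hormone receptors, read 9.83 and 9.80 in Derlin-1 controls, 10 and 9.84 in Derlin-1 KO, 10.09 and 10.20 in Derlin-2 controls, and 10.40 and 10.11 in Derlin-2 KO. KO was higher by 0.11 in both lines, and the difference was -0.01 (95% interval -0.45 to 0.43). Among 12 genes of Stat5 signalling 11 had a difference below 0, with a median of -0.08, while 43.2% of all genes lay above 0. Socs1, the feedback inhibitor of JAK kinases, read 6.98 and 6.91 in Derlin-1 controls, 6.88 and 6.86 in Derlin-1 KO, 6.83 and 6.79 in Derlin-2 controls, and 7.20 and 7.17 in Derlin-2 KO. It separated in opposite directions, mainly through the Derlin-2 KO arrays, with a difference of -0.45 (SE 0.13, adjusted p = 0.798).

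**Figure D3:**
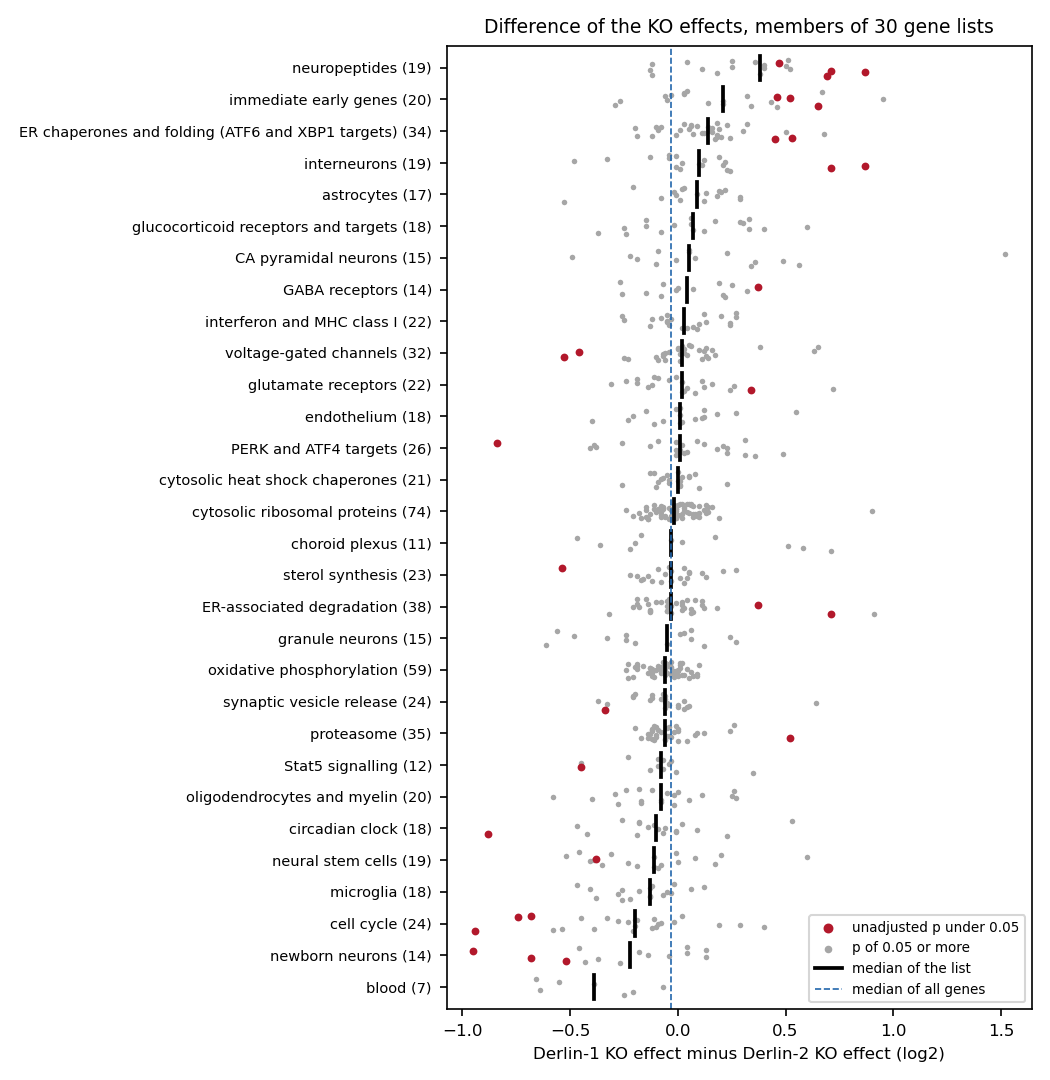
Derlin-1 effect minus Derlin-2 effect (x axis, log2) for the measured members of 30 gene lists, ordered by their medians; points are genes, red where the unadjusted p is under 0.05, black bars are list medians, the blue dashed line is the median of all genes, and numbers in brackets count the members. Neuropeptides stand at the top with a median of 0.38, newborn neurons at -0.22 and blood at -0.39 at the bottom, and 22 of 30 medians lie within 0.1 of 0.

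Immediate early genes, which neurons switch on within minutes of activity, had a median Derlin-1 effect of 0.24 and a median Derlin-2 effect of 0.03. The median difference was 0.21 over 20 members, with Nr4a1, Fosl2 and Nr4a2 at p under 0.05 in this direction (3 of 20, against 2.37% of all genes) and 0 in the other. Nr4a1, an orphan nuclear receptor, read 12.08 and 12.05 in Derlin-1 controls, 12.49 and 12.44 in Derlin-1 KO, 12.67 and 12.66 in Derlin-2 controls, and 12.51 and 12.59 in Derlin-2 KO. The Derlin-1 controls were the lowest arrays, and the difference was 0.52 (SE 0.13, 95% interval 0.21 to 0.83, adjusted p = 0.757). Nr4a2, its relative, differed by 0.46 (SE 0.17), a second probe gave 0.65 (SE 0.18), and p at the brighter probe stayed under 0.05 in 3 of the 8 fits without an array. Fosl2, a subunit of AP-1, differed by 0.65 (SE 0.18) at its brightest probe and by -0.72 (SE 0.15) at a dimmer one, so that the gene has no settled direction. Npas4, an activity-dependent transcription factor, had the highest difference, 0.95 (SE 0.51), which was 0.41 without Derlin-2 KO replicate 1 and 1.49 without the other Derlin-2 KO array. Fos and Egr1 differed by 0.46 (SE 0.53) and 0.14 (SE 0.19) and Arc by -0.05 (SE 0.18). The list median was 0.11 without Derlin-2 control replicate 2 or Derlin-2 KO replicate 1, 0.13 without Derlin-1 KO replicate 1 and 0.31 without Derlin-2 control replicate 1, and it was 0.09 when each gene was given by the median of its bright probes.

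Receptors, channels and release proteins had list medians within 0.06 of 0. Grin1, the obligatory NMDA receptor subunit, differed by 0.34 (SE 0.14) with the Derlin-2 KO arrays lowest, and 2 other bright probes gave 0.56 and -0.02. Scn4b, a sodium channel beta subunit, read 9.82 and 9.84 in Derlin-1 controls, 9.30 and 9.30 in Derlin-1 KO, 9.56 and 9.70 in Derlin-2 controls, and 9.77 and 9.49 in Derlin-2 KO. The Derlin-1 KO arrays were the lowest, and the difference was -0.53 (SE 0.17, adjusted p = 0.827). Kcnq3, a subunit of the M-current channel, differed by -0.46 (SE 0.17), again through the Derlin-1 line, with effects of -0.49 and -0.03. Syt1, the calcium sensor of vesicle release, differed by -0.34 (SE 0.13), but its other 2 probes gave 0.63 each. Cry1, a repressor of the circadian clock, differed by -0.88 (SE 0.22, 95% interval -1.41 to -0.34, adjusted p = 0.763) with effects of -0.69 and 0.19, beside -0.21 (SE 0.38) at a second probe. In the 8 fits without an array, p stayed under 0.05 in 8 for Cry1, 5 for Scn4b, 2 for Kcnq3 and 1 each for Grin1 and Syt1, and among the stress genes above in 5 for Nupr1 and Insig1, 4 for Os9 and 1 for Psmb2.

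The deletion does not reach microglia, endothelium and blood, whose markers follow. For the counts by sign below, 43.2% of all genes had a difference above 0. Microglia markers had a median difference of -0.13 over 18 members, 16 of them below 0, and 0 reached p under 0.05. Without Derlin-2 KO replicate 2 it was -0.26, and without the other Derlin-2 KO array -0.08. Blood genes had -0.39 over 7 members, with all 7 below 0 and 0 at p under 0.05. Their deviation was 0.74 on Derlin-1 control replicate 2 and -0.35 to -0.33 on the other 3 arrays of that line, and 0.41 on Derlin-2 control replicate 2 and -0.14 to 0.01 on the other 3 of that line. Without Derlin-1 control replicate 2 the median difference was 0.27. Leaving out the same array put the cell cycle median at -0.26. Endothelium had 0.01 over 18 members, with 0 at p under 0.05. Of the lineages that come from neural precursors, astrocytes had 0.09 over 17 members, oligodendrocytes -0.08 over 20 and choroid plexus -0.03 over 11, also with 0 at p under 0.05. The part of blood content in the differences was not tested. Housekeeping lists had medians near 0, with -0.06 over 59 genes of oxidative phosphorylation, 44 of them below 0, and -0.02 over 74 ribosomal proteins. Interferon genes had 0.03 over 22 members and glucocorticoid targets 0.07 over 18, but neither value is settled: without Derlin-2 control replicate 2 they were -0.31 and -0.11, and without the other Derlin-2 control 0.32 and 0.27. Clock genes, Cry1 included, had -0.10 over 18, and -0.21 without Derlin-1 control replicate 2.

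The genes with the smallest p were mostly dim and little studied. Gm45970, a predicted gene, had the smallest p of the genes with a symbol. It read 7.58 and 7.44 in Derlin-1 controls, 7.46 and 7.44 in Derlin-1 KO, 9.23 and 9.49 in Derlin-2 controls, and 7.21 and 7.28 in Derlin-2 KO. The Derlin-2 controls alone stood apart, and the difference was 2.06 (SE 0.17, 95% interval 1.65 to 2.47, adjusted p = 0.192). Cited4, a coactivator that binds CBP and p300, read 6.82 and 6.78 in Derlin-1 controls, 8.07 and 7.99 in Derlin-1 KO, 6.89 and 6.80 in Derlin-2 controls, and 6.94 and 6.67 in Derlin-2 KO. Here the Derlin-1 KO arrays alone stood apart, with a difference of 1.27 (SE 0.17, 95% interval 0.86 to 1.67, adjusted p = 0.623). Wdr72 differed by 1.0 (SE 0.15), C1s2, a complement protease gene, by 1.03 (SE 0.16), and Sectm1b by 1.20 (SE 0.21), each with the arrays separated upwards in Derlin-1 KO and downwards in Derlin-2 KO. The transcripts LOC102631979, Gm3227 and Gm20362 had the same pattern, with 1.04 (SE 0.17), 1.22 (SE 0.22) and 1.22 (SE 0.22).

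A pair of the largest differences rested on spots that the scanner software flagged as outliers. Slc17a1, a sodium-phosphate cotransporter gene, had no value on Derlin-1 control replicate 2, and its difference of 1.85 (SE 0.20) came from 7 arrays. With the flagged value of 9.32 kept it was -0.18 (SE 1.62). D630010B17Rik had values on 5 arrays and a difference of 2.66 (SE 0.24), which was -0.30 (SE 1.83) with the flagged spots kept. Neither can be given a direction. Epha10, an Eph receptor, had the largest difference among genes measured on all arrays whose groups separated in opposite directions with the higher Derlin-1 effect. It read 7.41 and 7.32 in Derlin-1 controls, 9.09 and 8.44 in Derlin-1 KO, 6.68 and 6.51 in Derlin-2 controls, and 6.26 and 6.45 in Derlin-2 KO, a difference of 1.64 (SE 0.30, adjusted p = 0.639), whereas a dimmer probe gave -0.23 (SE 0.23). Gm16496 followed with 1.54 (SE 0.56), which was 0.88 without Derlin-2 control replicate 1 and 2.21 without the other Derlin-2 control, and p stayed under 0.05 in 3 of the 8 fits without an array.

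In the opposite direction, several of the 10 genes with the smallest p owed it to low Derlin-1 KO arrays. Tmem255a, a transmembrane protein, read 6.09 and 6.06 in Derlin-1 controls, 5.29 and 5.26 in Derlin-1 KO, 5.86 and 5.88 in Derlin-2 controls, and 6.06 and 6.10 in Derlin-2 KO. The Derlin-1 KO arrays were the lowest, and the difference was -1.0 (SE 0.12, 95% interval -1.30 to -0.70, adjusted p = 0.553). Pla2g2f, a secreted phospholipase A2, differed by -0.98 (SE 0.16) with effects of -1.18 and -0.20, and Tdrd12, a tudor protein of the piRNA pathway, by -0.96 (SE 0.17) with -0.89 and 0.07. Wnk4, a kinase that regulates ion transport, read 6.92 and 6.39 in Derlin-1 controls, 5.04 and 5.12 in Derlin-1 KO, 6.01 and 5.95 in Derlin-2 controls, and 5.81 and 6.25 in Derlin-2 KO. Rgs13, a regulator of G-protein signalling, read 7.82 and 7.16 in Derlin-1 controls, 5.93 and 5.61 in Derlin-1 KO, 6.43 and 6.39 in Derlin-2 controls, and 6.54 and 6.33 in Derlin-2 KO. Both were highest in Derlin-1 controls and lowest in Derlin-1 KO, with differences of -1.63 (SE 0.30) and -1.75 (SE 0.32), and a dimmer Rgs13 probe gave -0.86 (SE 0.33).

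Others differed through the Derlin-2 line or through both. Gm5089, a long noncoding transcript, read 9.60 and 9.73 in Derlin-1 controls, 9.66 and 9.56 in Derlin-1 KO, 7.52 and 8.04 in Derlin-2 controls, and 9.28 and 9.02 in Derlin-2 KO. Its Derlin-2 controls were the lowest arrays, as for Eomes and Top2a, and the difference was -1.43 (SE 0.27), with -1.45 (SE 0.42) at a second probe. Gm30938, Gpr31b, D7Wsu130e and Nhlh2, a neuronal helix-loop-helix factor, separated downwards in Derlin-1 KO and upwards in Derlin-2 KO, with differences of -1.26 (SE 0.16), -1.03 (SE 0.17), -0.98 (SE 0.18) and -0.88 (SE 0.17). Among the largest such differences were Avp, with -1.53 (SE 0.41), Nudt12, an NAD-cap hydrolase, with -1.50 (SE 0.38), Kcnj5, a potassium channel subunit, with -1.46 (SE 0.42), and Batf3, a transcription factor of dendritic cells, with -1.44 (SE 0.38). These are dim genes, with Avp between 4.20 and 5.85, and leaving out Derlin-2 control replicate 1 and then 2 gave -1.12 and -1.94 for Avp and -0.99 and -1.94 for Kcnj5.

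**Figure D4:**
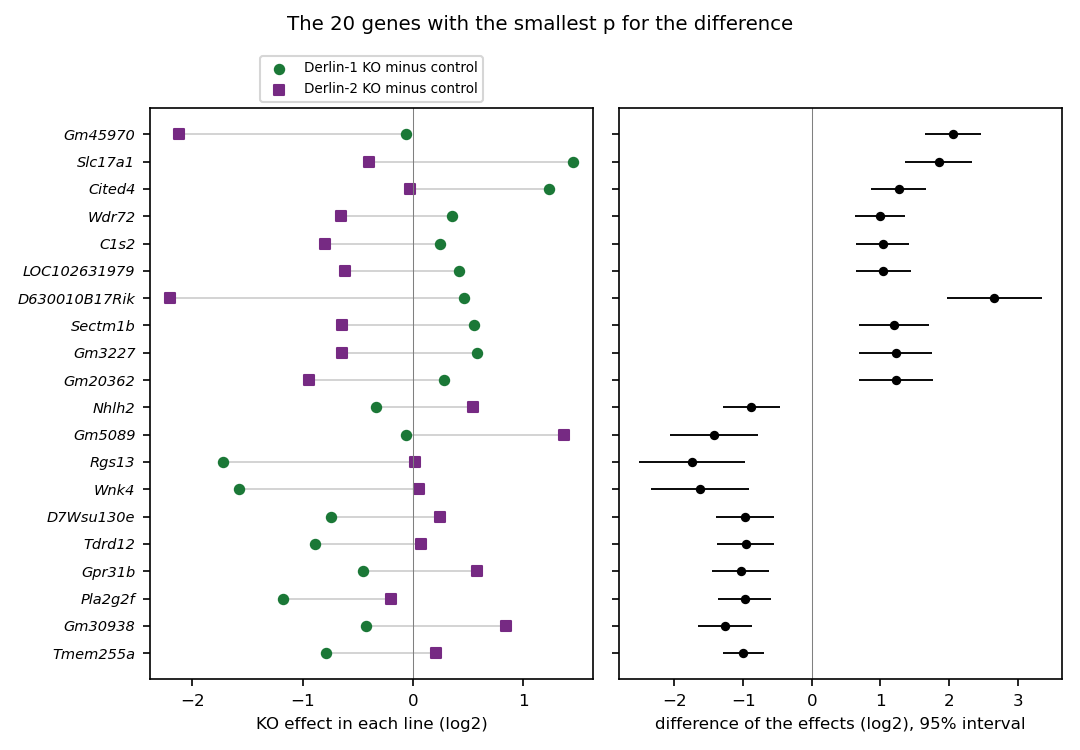
The 20 genes with a symbol and the smallest p for the difference, 10 in each direction; the left panel gives the KO effect in each line (log2; circles, Derlin-1; squares, Derlin-2) and the right panel the Derlin-1 effect minus the Derlin-2 effect (log2) with its 95% interval from limma. Intervals run from 1.65 to 2.47 for Gm45970 and from -1.30 to -0.70 for Tmem255a, and Slc17a1 and D630010B17Rik rest on 7 and 5 arrays.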

How the data were processed

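Total RNA of dentate gyrus was hybridised to 1-colour Agilent SurePrint mouse arrays. The deposited scanner files hold spot intensity, background-subtracted and detrended by Agilent Feature Extraction (version 10.7.1.1), with flags per spot, and the depth is limited by the number of arrays. The authors made their log2 values in GeneSpring by quantile normalization and centring on the median of each probe, and these deposited values served only as an alternative. Their columns of fold changes were not used.

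Control spots were left out, and outlier-flagged spots were set to missing. The log2 signals of 59305 spots were quantile-normalized over the 8 arrays, and spots of a probe were averaged. Of the bright probes, 172 had no value in some group and 228 of those tested lacked a value on at least 1 array. No spot was saturated. A gene is given by its brightest bright probe, with symbols updated through Entrez ID to RefSeq (43901 of 56605 probes matched). Probe positions are not given, as the design predates the RefSeq build used here.

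A model of 4 group means was fitted with limma (version 3.58.1, R version 4.3.3), with 4 residual and 2.51 prior degrees of freedom. Tests were two-sided, with Benjamini-Hochberg adjustment over the probes tested. All p-values are limma's. An exact test of 2 arrays against 2 cannot go below 0.333. The fit was tested on simulated data. Groups were taken from the sample titles, since the genotype field of KO samples names the floxed genotype.

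The genes named are the 10 with the smallest p in each direction, the 5 with the largest difference in each direction among those at p under 0.05 measured on all arrays and separated in opposite directions, the extremes of the lists, and 15 genes of the study. List members at p under 0.05, other genes of the lists, other probes and both motifs were chosen after their values were seen. Members and lists were chosen with earlier results of these data known. The alternatives were scaling to the 75th percentile, normexp on median signals with offset 50 (the files hold no mean signals), the deposited log2 values, other filters on dim probes, a variance trend, the last eighth of the rows left out, replicate blocks, other probes and each array left out. Keeping outlier spots was chosen after seeing the data. Some results are not reported here.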

Additional observations from a re-analysis of the deposited data

Results flagged for a closer look

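In 4 of the 30 lists the median deviation of the members, before rounding, separated the KO from the control arrays in opposite directions in the 2 lines. Among single genes 5.6% did so, but a median over many members is a different measure, so that share is no base for the lists. No such share was computed for medians. The difference between the lines was not tested for any list. Neuropeptides, with a median difference of 0.38, had deviations of -0.12 and -0.08 in Derlin-1 controls, 0.05 and 0.13 in Derlin-1 KO, 0.06 and 0.11 in Derlin-2 controls, and -0.12 and -0.09 in Derlin-2 KO. Cell cycle genes, with -0.20, had 0.17 and 0.08 in Derlin-1 controls, 0.03 on both Derlin-1 KO arrays, -0.14 and -0.18 in Derlin-2 controls, and 0.01 and -0.01 in Derlin-2 KO. Microglia markers, with -0.13, had 0.13 and 0.09, 0.06 and 0.05, -0.10 and -0.10, and 0.05 and -0.09 in the same order. Stat5 signalling, with -0.08, had -0.02 and 0.12, -0.06 and -0.05, -0.18 and 0.03, and 0.14 and 0.03. In the Derlin-2 line a control and a KO array of this list both read 0.03, so that they do not separate at this precision. In the Derlin-1 line its gap was 0.03. The nearest Derlin-2 arrays of the microglia list were a control at -0.10 and a KO array at -0.09.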

How the results depend on the processing

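The count of probes at an adjusted p under 0.05 was 0 under scaling to the 75th percentile, normexp, the deposited values, no filter, the variance trend, the last eighth of the rows left out, outlier spots kept and both replicate blocks, 3 among probes bright in at least 1 group, and 0 to 2 without an array. The 3 were Gm13848 and a pair of probes without a symbol, well above the other arrays in Derlin-2 controls only. On the other arrays they read 1.83 to 2.08, while the lowest mean of a tested bright probe was 4.31. They passed that filter through the Derlin-2 controls, the group in which they were high, so these calls lend no support to a difference. A probe of the pair had no value on Derlin-2 control replicate 1. The 2 without Derlin-2 control replicate 1 had no symbol. At an unadjusted p under 0.05 the count was 2048, between 1795 and 2397 under the other alternatives except no filter, which gave 3278 among 56414 probes, and 1199 (without Derlin-1 KO replicate 1) to 4319 (without Derlin-2 control replicate 2) without an array, with 1285 without Derlin-2 KO replicate 2. The count of probes separated in opposite directions, 2143, was within 1.5 times under each alternative run. It was not run without an array, where a group of 1 cannot overlap itself.

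The replicate number as a block over all arrays gave 2397 probes at p under 0.05 and 0 past the adjusted threshold, and within each line 2195 and 0. The pairing is only a shared number: same-numbered arrays' deviations correlated between -0.206 and 0.328 over the 6 pairs of groups.

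Of 69 genes named with their fits, 64 kept their sign under the 18 alternatives other than other probes. Slc17a1 was -0.01 in the deposited values and -0.18 with outlier spots kept, and D630010B17Rik -0.16 and -0.30. Slc32a1 was -0.01 after scaling to the 75th percentile, -0.02 in the deposited values and -0.07 to 0.10 without an array. Stat5b was 0.00 after that scaling and -0.15 to 0.14 without an array, and Mki67 -0.59 to 0.16. Another probe turned the sign of Derl1 (0.32), Nupr1 (0.41), Dcx (0.51), Fosl2 (-0.72), Syt1 (0.63 and 0.63), Grin1 (-0.02), Psmb2 (-0.10) and Epha10 (-0.23). The causes were not tested. Of the 30 list medians, 14 kept their sign under every alternative.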
